A study of Oryza sativa with 6 samples.

Results

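The most abundant transcripts of the control rice leaf blade, read as the brightest genes of the empty vector line, are described here with their standing in a rice line that overexpresses Os-LBD37. The members were the 200 genes with the highest mean intensity over the 3 empty vector arrays, out of 17905 genes. Where several probe sets were annotated to 1 gene alone, the one with the highest mean over all 6 arrays stood for it. The empty vector arrays chose the members, which by itself favours lower values in the overexpressor, so the direction over the whole list is a description and carries no test.

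The study hybridized leaf blade RNA of 2 hygromycin-resistant rice lines to Affymetrix rice arrays, with 3 arrays for a line that carries the empty vector and 3 for line RK16331-13, an Os-LBD37 overexpressor. The blades were the 5th and 6th, from plants in hydroponic culture whose sampling date was set by the emergence of a later leaf. Each genotype was a single line, so line and transgene cannot be told apart, and the promoter of the transgene is not stated in the labels. The labels call the 3 hybridizations of a line independent without saying whether they came from separate plants, so each p-value refers to the scatter among these arrays, which may be technical. The probe set of Os-LBD37 itself was not identified, so the overexpression was not analysed here.

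Os-LBD37 belongs to the LATERAL ORGAN BOUNDARIES domain proteins, a plant family of transcription factors. In Arabidopsis the protein of the same name, LBD37, is known to repress genes of anthocyanin synthesis and of the response to nitrogen. A leaf blade spends much of its messenger RNA on the photosynthetic machinery. Light-harvesting proteins and the photosystems capture light, an electron transport chain makes NADPH and drives ATP synthesis, and the Calvin cycle fixes carbon dioxide with rubisco. When rubisco takes up oxygen instead, photorespiration recovers the carbon through the chloroplast, peroxisome and mitochondrion and releases ammonium, which is assimilated again.

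The 200 members lay at the top of the scale. Their empty vector means ran from 35574.9 down to 16051.3, a ratio of 2.22, with a median of 20919.5 against 613.4 over all genes. Intensities of different probe sets depend on their sequences, so the order of the members is one of brightness, not of numbers of molecules. The limit of the list was not a gap: SAP8 had an empty vector mean of 16067.7 ± 920.3 (SD, n = 3) at place 199 and LOC4330096 had 16051.3 ± 3913.4 at place 200, while LOC4337744 just outside had 15919.1 ± 1617. In all, 155 members were above 10000 on every array. The members varied less between arrays of a line than dimmer genes did, with a median SD on the log2 scale of 0.16 in the empty vector and 0.19 in the overexpressor, against 0.28 and 0.29 in the genes ranked 201 to 2000. Of the members, 86 (43%) were read by probe sets of the types that can cross-hybridize with related transcripts, against 16.8% of all genes.

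Named genes were more frequent among the members than in the table: 59 of 200 (29.5%) had a symbol or synonym that names more than a locus or clone, against 13.7% of all genes. All 200 were protein coding, and atpI, a subunit of the plastid ATP synthase, was the only gene of the plastid genome in the table. The 5 brightest genes, LOC4333342, LOC4324479, LOC9268392, LOC4344899 and LOC4331509, had no name in the tables used. CAB2R, a light-harvesting chlorophyll a/b-binding protein of photosystem II, was the brightest named gene. LIR1, a light-induced chloroplast protein, ALDP, the plastid fructose-bisphosphate aldolase, and atpI came next. By role, 20 named members belonged to photosynthesis or photorespiration: 5 to light harvesting and the photosystems, 5 to electron transport and the plastid ATP synthase, 4 to the Calvin cycle and 6 to photorespiration. These were 20 of the 25 genes of the table whose names placed them in 1 of these 4 lists, and none of the 25 passed the test between the lines described next; genes without a name could not be placed. Of all 2459 named genes of the table, 59 were members. Translation supplied 6 of its 33 named genes, membrane transport 3 of 41, transcription regulators 5 of 54, and chlorophyll metabolism 0 of 10. Genes that mark other tissues were not members: 0 of 9 seed storage genes, 0 of 4 root genes, 0 of 10 panicle and flower genes and 0 of 13 genes of dividing tissue. With 200 members among 17905 genes, lists this short would mostly hold none, so these counts do not tell which tissue was sampled. The highest empty vector mean was 913.7 in the seed storage list, 891.3 in the root list, 3851.7 in the panicle and flower list and 10982.4 in the dividing tissue list. Summed over each list, the empty vector and overexpressor arrays overlapped: seed storage genes reached 962.4 to 1268.5 against 772.3 to 1547.2, and root genes 824.2 to 1121.8 against 556.2 to 3126.2. Panicle and flower genes reached 4310.3 to 6286.5 against 1953.5 to 7494.2, and dividing tissue genes 23408.5 to 35888.9 against 28762.1 to 37432.5.

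Few members changed between the lines at the level of single genes. With limma on log2(intensity + 16) and Benjamini-Hochberg adjustment over all 17905 genes, 75 genes passed an adjusted p of 0.05 (0.419%), 45 higher (0.251%) and 30 lower in the overexpressor. Among the members 3 passed (1.5%), all of them lower, where 0.168% of all genes passed in that direction. Since the empty vector arrays both chose the members and entered the contrast, this share is given as a description only. In a fit blocked on replicate number, 180 of all genes (1.01%) and 4 of the members passed, and with array weights 12 members did, where 3.81% of all genes passed. Without the block, 44 members had an unadjusted p under 0.05 and a lower level, a direction in which 5.65% of all genes did, and 0 members had one with a higher level, where 8.6% of all genes did.

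The 3 members that passed have no name in the tables. LOC9268627 measured 16039.8, 21816.5 and 17554.2 in the empty vector and 5063.4, 4103.6 and 5870.2 in the overexpressor. The lines were far apart on every array, and the level fell by 1.88 ± 0.21 on the log2 scale (SE, as for every log2 difference below; limma adjusted p = 0.0280). LOC4327297 measured 21743.6, 12696.9 and 27981.4 in the empty vector against 2302.8, 1122.4 and 3116.8 in the overexpressor. It fell by 3.29 ± 0.44 (limma adjusted p = 0.0449) and went from place 104 in the empty vector to place 3940 in the overexpressor, the lowest of any member. LOC4333009 measured 18261.8, 22645.6 and 17974.6 against 8340.9, 6610.2 and 5876.8, and fell by 1.50 ± 0.20 (limma adjusted p = 0.0449). Within replicate numbers, LOC4327297 was 9.44-, 11.3- and 8.98-fold lower in the overexpressor, LOC9268627 3.17-, 5.32- and 2.99-fold, and LOC4333009 2.19-, 3.43- and 3.06-fold. With 1 array left out, the sizes stayed close to these while most calls were lost. LOC4327297 was then at log2 differences between -3.61 and -2.88 with adjusted p values between 0.0581 and 0.167, and LOC4333009 between -1.64 and -1.39 with 0.0689 to 0.168. LOC9268627 was at -1.75 or lower in each, with adjusted p values of 0.0730 to 0.140 without any array other than the second overexpressor array and 0.0451 without that one. Without both replicate 2 arrays, LOC4327297 (limma adjusted p = 0.0252) and LOC9268627 (0.0330) passed. LOC4333009 was also above the threshold after quantile normalization (adjusted p = 0.0611), median centring (0.0512), a fit without the variance trend (0.0536) and a fit without both replicate 2 arrays (0.0530).

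**Figure D1:**
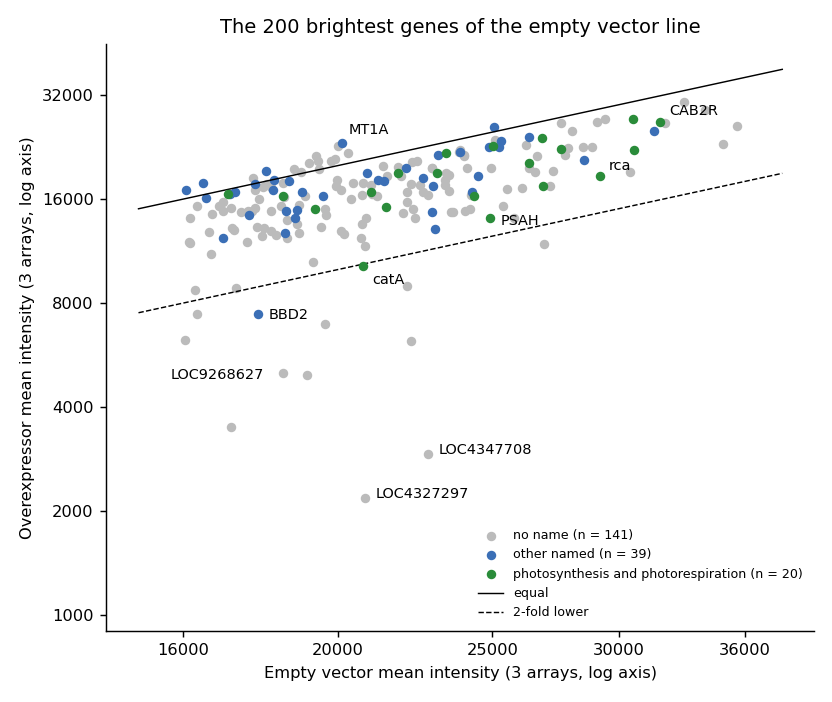
Mean intensity of the 200 members in the overexpressor (vertical, log axis) against the empty vector (horizontal, log axis), each over 3 arrays, with named photosynthesis and photorespiration genes in green, other named genes in blue and unnamed genes in grey. The solid line marks equal means and the dashed line a 2-fold lower mean; most points lie between them, and LOC4327297 and LOC4347708 lie farthest below.

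Other unnamed members were also lower on every overexpressor array without passing. LOC4347708 measured 20537.4, 21419.4 and 26421.5 in the empty vector and 1649.0, 644.9 and 6506.9 in the overexpressor. Its log2 difference of -3.55 ± 0.75 was the largest of the members, but its overexpressor arrays were spread widely among themselves, and limma gave an adjusted p of 0.0965. LOC4342030 measured 12935.1, 32586.4 and 11877.7 against 5254.0, 6365.4 and 3269.7. Every overexpressor array was below every empty vector array, at a log2 difference of -1.84 ± 0.44 (limma adjusted p = 0.128), and with the replicate number as a block it passed (limma adjusted p = 0.0488). LOC4324873, at place 34 in the empty vector, had the tightest values of these: 25154.9, 26753.3 and 25426.7 against 14296.5, 14008.7 and 14012.7, a log2 difference of -0.87 ± 0.15 (limma adjusted p = 0.0752). In all, 14 members were lower by more than 2-fold in the fit and 0 were higher by that much.

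The named genes of light harvesting and the photosystems stood lower or near their control level, and none passed. PSAH, the H subunit of photosystem I, measured 20828.4, 30947.3 and 23008.0 in the empty vector and 15851.8, 12967.5 and 13451.1 in the overexpressor. The lines did not overlap, and the log2 difference was -0.81 ± 0.21 (limma adjusted p = 0.149). OEE3, an oxygen-evolving enhancer protein of photosystem II, measured 22731.4, 32719.9 and 25303.9 against 18006.2, 17620.4 and 16899.0, again without overlap (log2 difference -0.60 ± 0.19, limma adjusted p = 0.218). PSAH thereby went from place 43 to place 199 by brightness, and OEE3 from place 25 to place 100. CAB2R kept place 6 in both lines, with 31649.5, 40036.5 and 23853.3 in the empty vector and 22175.2, 37473.0 and 20501.9 in the overexpressor. The chlorophyll a/b-binding proteins RCABP69 and RCABP89 differed by -0.36 ± 0.30 and 0.02 ± 0.62 on the log2 scale. RCABP89 was the one photosynthesis member above 0 in the fit, and its second array stood apart in both lines: 11285.9, 32006.3 and 7951.6 in the empty vector and 8562.0, 28585.2 and 12348.6 in the overexpressor.

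Among the 4 photosynthetic lists, electron transport had the median log2 difference closest to 0, at -0.17, and none of its genes passed. petC, the Rieske protein of the cytochrome b6-f complex, had a log2 difference of -0.31 ± 0.18. PETE, which is plastocyanin, ADI1, a ferredoxin, LFNR1, leaf ferredoxin-NADP reductase, and atpI had log2 differences between -0.18 and -0.15, and those 4 were above 0 after quantile normalization. The lines overlapped for each of the 5. For LFNR1 the spread in the control was wide, with 24092.2, 15544.8 and 25807.9 in the empty vector against 19028.5, 18695.2 and 19534.3 in the overexpressor.

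The Calvin cycle held rca, whose arrays were the most uneven among the photosynthesis genes, and none of its genes passed. This gene encodes rubisco activase, which frees rubisco of bound inhibitors. It measured 20895.4, 41372.1 and 25344.5 in the empty vector and 7119.6, 41035.8 and 7878.0 in the overexpressor. It was 2.93-fold lower in the overexpressor within replicate 1 and 3.22-fold lower within replicate 3, but at the same level (1.01-fold) within replicate 2. Over all arrays the log2 difference was -1.08 ± 0.68 (limma adjusted p = 0.547, and 0.200 with the replicate block). Without both replicate 2 arrays it was -1.62 ± 0.16 (limma adjusted p = 0.0346). That fit had 2 arrays a line and left out the replicate without a difference, so it is a description. ALDP had the same shape, with 27170.2, 36245.2 and 28570.6 against 15386.8, 34662.6 and 16425.4 (log2 difference -0.56 ± 0.34). RPE, ribulose-phosphate 3-epimerase, did not overlap between the lines, at 19712.0, 23138.3 and 21516.6 against 14072.1, 18077.5 and 13393.3 (log2 difference -0.51 ± 0.19, limma adjusted p = 0.281). RBCS-C, a small subunit of rubisco, was close to its control level at 20339.9, 26449.8 and 23358.9 against 19824.7, 25527.9 and 19879.7, with a log2 difference of -0.11 ± 0.19 that was 0.14 after quantile normalization. TPT, the triose phosphate translocator that exports the product of the cycle from the chloroplast, differed by -0.41 ± 0.16 without overlap.

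**Figure D2:**
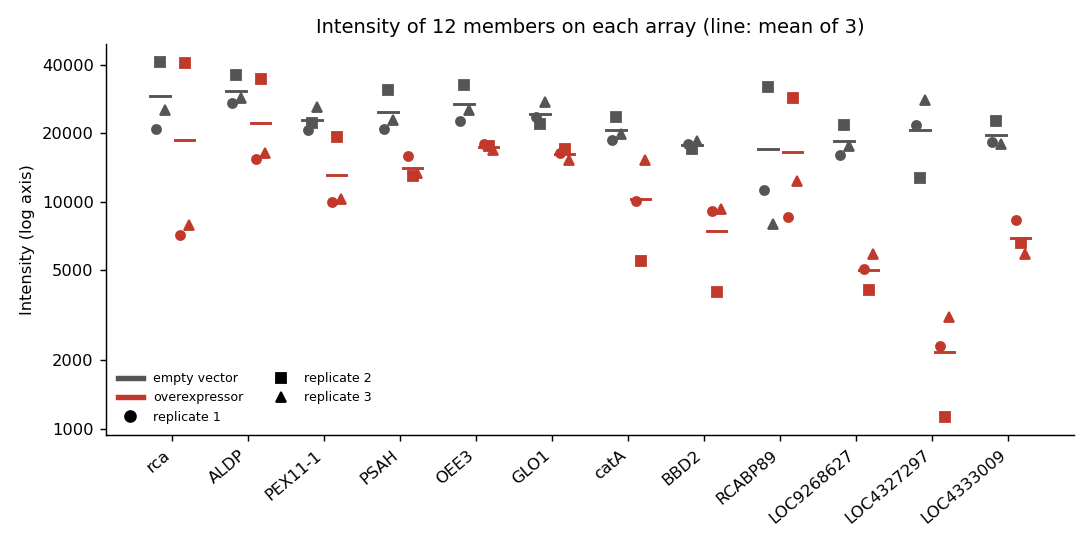
Intensity (log axis) of 12 members on each of the 6 arrays, with empty vector in grey, overexpressor in red, 1 marker shape for each replicate number and a line at the mean of 3. For rca, ALDP and PEX11-1 the replicate 2 square of the overexpressor lies near the empty vector, for catA and BBD2 it lies lowest, and the last 3 genes are separated on every array.

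Photorespiration was represented from the peroxisome to the recapture of ammonium, and none of its members passed. Of these, 6 of 6 were below 0, where 91% of the 200 members and 49.3% of all genes were. Of the 3 named photorespiration genes outside the list, 1 was below 0, and their median log2 difference was 0.02. Catalase, catA, which destroys the hydrogen peroxide of the pathway, measured 18612.9, 23709.7 and 19881.9 in the empty vector and 10038.0, 5498.6 and 15207.4 in the overexpressor. The lines did not overlap, but the overexpressor values were spread widely and the log2 difference was -1.13 ± 0.36 (limma adjusted p = 0.225). Its overexpressor level was 1.85-, 4.31- and 1.31-fold lower within replicates 1, 2 and 3, so replicate 2 showed the largest difference here and the smallest for rca. GLO1, a glycolate oxidase that makes this peroxide, measured 23597.0, 21979.3 and 27508.2 against 16459.5, 17112.7 and 15279.3 (log2 difference -0.58 ± 0.17, limma adjusted p = 0.190). The second glycolate oxidase, GLO5, overlapped between the lines at -0.38 ± 0.19. The ammonium-assimilating enzymes GS2, plastid glutamine synthetase, and Fd-GOGAT, ferredoxin-dependent glutamate synthase, differed by -0.20 ± 0.24 and -0.31 ± 0.22, and GDCSH, the H protein of glycine decarboxylase, by -0.31 ± 0.29. PEX11-1, a protein of peroxisome proliferation, measured 20691.7, 22159.9 and 26151.9 against 9931.2, 19243.9 and 10228.4. Its log2 difference was -0.87 ± 0.29 over all arrays (limma adjusted p = 0.236, and 0.169 with the replicate block). Without both replicate 2 arrays, with 2 arrays a line, it was -1.21 ± 0.17 (limma adjusted p = 0.0475). That fit left out the replicate with the smallest difference for PEX11-1, 1.15-fold, so it is a description.

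Over the 20 named genes of photosynthesis and photorespiration, 19 were below 0 (where 49.3% of all genes were), the median log2 difference was -0.31, and all overexpressor arrays lay below all empty vector arrays for 5 (where 9.36% of all genes did so). After quantile normalization 14 of the 20 were below 0 and the median was -0.10. The other 39 named members had 33 below 0 and a median of -0.17, which became 0.06 with 17 below 0 after quantile normalization. The 141 unnamed members had 130 below 0 and a median of -0.36, and after quantile normalization 98 and -0.15. The median of the photosynthetic genes thus lay above that of the unnamed members and below that of the other named ones. On the deposited scaling, all overexpressor arrays lay below all empty vector arrays for 17 of the 39 and 54 of the 141. Both were larger shares than the 5 of 20 among the photosynthetic genes. These differences were not tested. Blade RNA was measured in bulk, so fewer cells of a type and less RNA per cell cannot be told apart.

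Genes of protein synthesis and folding had small log2 differences, and none passed. Small did not mean overlapping. All overexpressor arrays lay below all empty vector arrays for 3 of the 6 members of translation, EF-1-alpha, RPS21 and RPL39B. Of the members 38% did so, and of all genes 9.36%. GOS2, a translation initiation factor, measured 21672.7, 27741.7 and 26521.3 in the empty vector and 21204.1, 27003.3 and 22337.1 in the overexpressor. EF-1-alpha, a translation elongation factor, measured 24271.7, 24990.2 and 26498.7 against 22370.1, 23119.7 and 22577.4. The 6 members of translation, these along with the ribosomal proteins RPS21, QM1 and RPL39B and the ubiquitin fusion RPS27AA, had log2 differences from -0.29 to -0.04 with a median of -0.16, which was 0.07 after quantile normalization. The second ubiquitin fusion, UBQ1, was at -0.03 ± 0.16, the HSP90 chaperones HSP81-3 and HSP81-2 at -0.13 ± 0.17 and -0.04 ± 0.16, and TCTP, the translationally controlled tumour protein, at -0.13 ± 0.17, all 4 above 0 after quantile normalization. The plastid protease genes CLPC2, CLPC1 and FTSH2 lay between -0.22 and -0.13 and likewise turned above 0. For CLPC2 and CLPC1 the lines did not overlap. In glycolysis, GAPC1, cytosolic glyceraldehyde-3-phosphate dehydrogenase, was at -0.11 ± 0.18 (0.13 after quantile normalization). TPI, triose phosphate isomerase, was at -0.29 ± 0.15, without overlap.

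The metallothioneins, small proteins that bind metals through cysteines, stood apart from one another, and none passed. MT2B measured 23253.2, 25514.5 and 19973.1 in the empty vector and 11957.7, 19325.5 and 12788.7 in the overexpressor, without overlap (log2 difference -0.67 ± 0.23, limma adjusted p = 0.261). MT1A measured 21926.8, 18839.0 and 19581.9 against 22796.5, 25270.1 and 21731.1. Its log2 difference of 0.21 ± 0.16 was the highest of all 200 members, with lines that overlapped. MT2A was at 0.05 ± 0.18, and it was -0.03 with array weights.

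Redox and regulatory genes included both steady and lower members. OsTrxm5, an m-type plastid thioredoxin, measured 23872.3, 24069.4 and 24935.4 against 15952.4, 19047.5 and 15282.8, without overlap (log2 difference -0.54 ± 0.17, limma adjusted p = 0.207). The chloroplast stress protein cdsp32, glyoxalase GLYI-11 and h-type thioredoxin TRXH lay between -0.24 and 0.08. Among transcription regulators, EIL1, an ethylene-insensitive3-like factor, was at -0.52 ± 0.22 and OsOBF1, a bZIP factor, at -0.47 ± 0.23, both without overlap. The homeodomain gene Hox16 was at -0.42 ± 0.22, while the homeobox gene HOS59 and the zinc finger stress gene SAP8 were at 0.00 ± 0.17 and 0.08 ± 0.16. BBD2, a bifunctional nuclease, had the largest log2 difference of any named member. It measured 17913.0, 17036.0 and 18495.7 in the empty vector and 9086.8, 3996.7 and 9283.6 in the overexpressor. The log2 difference was -1.35 ± 0.34 (limma adjusted p = 0.140, and 0.0868 with the replicate block). Without both replicate 2 arrays, with 2 arrays a line, the limma adjusted p was 0.0463. It went from place 165 to place 756.

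The remaining named members were spread over other roles. LIR1, a light-induced chloroplast protein, BIPP2C1, a PP2C phosphatase, and OC-I, oryzacystatin, which inhibits cysteine proteases, were at -0.32 ± 0.17, -0.46 ± 0.20 and -0.40 ± 0.17, each without overlap. PIP2-7, a plasma membrane aquaporin, was at -0.16 ± 0.15, also without overlap, and at 0.07 after quantile normalization. HAK5, a potassium transporter, was at -0.34 ± 0.18 and SAMDC, S-adenosylmethionine decarboxylase of polyamine synthesis, at -0.37 ± 0.21. ARF, an ADP-ribosylation factor, and GF14F, a 14-3-3 protein, were at 0.10 ± 0.23 and -0.01 ± 0.17. LOC4348905, whose synonym gives no role, was at -0.08 ± 0.24.

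Read as a list, the members stood slightly lower in the overexpressor. Of the 200, 182 had a log2 difference below 0 (91%, against 49.3% of all genes), with a median of -0.32, a 1.25-fold lower level, and quartiles of -0.55 and -0.15. The median over all genes was 0.01. All overexpressor arrays lay below all empty vector arrays for 76 members (38%, where 9.36% of all genes did so), and all lay above for 1, LOC4326196 (0.5%, against 11.8%). For 123 the lines overlapped. The size of this difference changed with the scaling. The deposited arrays shared a trimmed mean of about 500.1. The level that only 1 in 200 rice probe sets exceeded was 16238.9 to 18324.7 on the empty vector arrays. On the overexpressor arrays that level was 13954.3 to 17484. The members lie at or above about this level, so it shows the same shift in another way. After quantile normalization, which gives all arrays the same distribution, 129 members were below 0 (64.5%, against 50.4% of all genes) and the median was -0.12. The non-overlapping counts were then 37 lower (18.5%, against 9.73%) and 13 higher (6.5%, against 11.6%). Quantile normalization makes the brightest values of all arrays equal, so it shrinks a shared shift of the brightest genes whatever its source. The source of the shift was not tested.

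The choice of arrays also moved the list. When the 200 brightest genes were chosen on the overexpressor arrays, 147 were below 0 with a median of -0.17, and after quantile normalization 87 were with a median of 0.06. When they were chosen on all 6 arrays, 165 were below 0 with a median of -0.25, and after quantile normalization 110 with a median of -0.05. With 1 empty vector array kept out of the choice and used alone as the control, the medians were -0.20, -0.31 and -0.32 for replicates 1, 2 and 3. Ranked by their mean over all 6 arrays, the 100 brightest genes had a median log2 difference of -0.28, those ranked 401 to 800 had -0.17 and those ranked 3201 to 6400 had 0.02. The difference was thus largest in the brightest genes and smaller in dimmer ones. After quantile normalization the same medians were -0.06, -0.05 and 0.01. Because that step makes the brightest values of all arrays equal, these smaller medians do not tell the source of the difference.

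**Figure D3:**
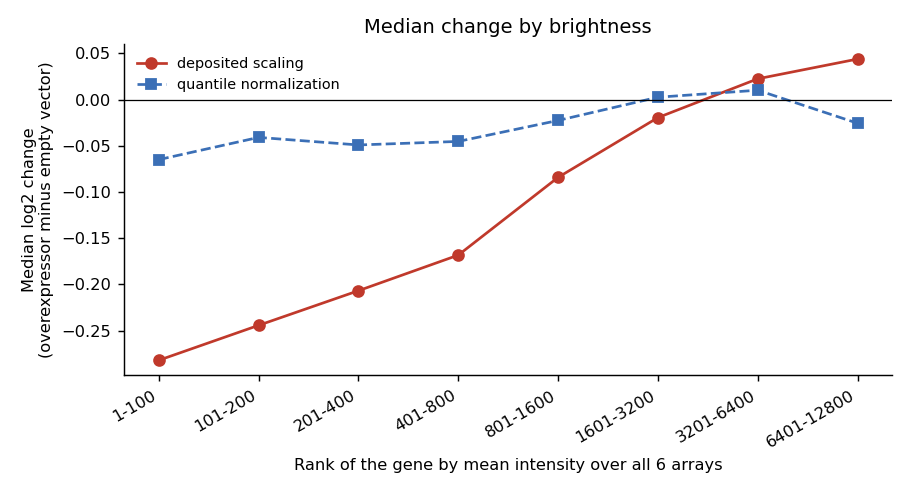
Median log2 difference, overexpressor minus empty vector, of genes in bins of rank by mean intensity over all 6 arrays, with the deposited scaling in red and after quantile normalization in blue. The red line climbs from -0.28 in the 100 brightest genes to 0.04 at ranks 6401 to 12800, and the blue line stays within 0.07 of 0.

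The members held a sizeable part of the signal of a control blade, and less in the overexpressor. The summed intensity of the 200 as a percentage of all rice probe sets was 9.56, 10.3 and 10.1% on the empty vector arrays and 7.86, 8.62 and 7.95% on the overexpressor arrays. The means were 9.98 ± 0.38% and 8.14 ± 0.41% (SD, n = 3 each), with no overlap, for a set chosen on the first of these lines. For 200 genes chosen on the overexpressor the means were 9.34 ± 0.46% in the empty vector and 8.72 ± 0.90% in the overexpressor, with overlap between the arrays. For 200 genes chosen on all 6 arrays the means were 9.84 ± 0.43% and 8.56 ± 0.62%, without overlap.

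**Figure D4:**
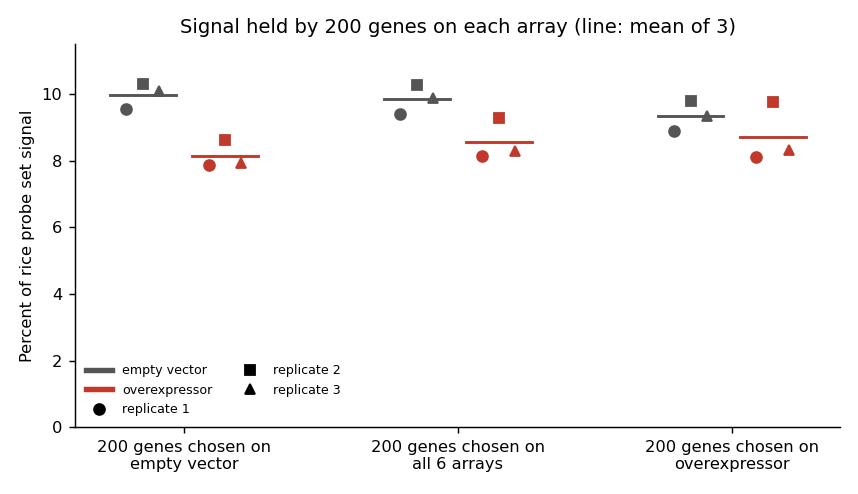
Percent of the summed intensity of all rice probe sets that 200 genes held on each array, for genes chosen on the empty vector arrays, on all 6 arrays and on the overexpressor arrays, with a line at the mean of 3. The lines of rice differ most for the genes chosen on the empty vector and overlap for those chosen on the overexpressor.

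The replicate numbers differed in which members were far lower. Members below 0 numbered 175, 155 and 178 of 200 within replicates 1, 2 and 3, with medians of -0.27, -0.20 and -0.38, and 125 were lower in every replicate (62.5%, against 20.2% of all genes). Only MT1A, LOC4326196, ARF and SAP8 were higher in every replicate (2%, against 22.6%). Lower by more than 2-fold in every replicate were 8 members (4%, against 1.16% of all genes): the 3 that passed, LOC4347708, LOC4342030, LOC4328842, LOC4337388 and LOC4330096. A further 5, rca, PEX11-1, LOC4334274, LOC4336245 and LOC4336044, were lower by more than 2-fold within replicates 1 and 3 but within 2-fold in replicate 2 (2.5%, against 1.02% of all genes). LOC4334274 measured 28379.8, 21720.2 and 30705.8 in the empty vector and 7715.1, 20457.1 and 7358.9 in the overexpressor. The reverse, lower by more than 2-fold within replicate 2 alone, held for 17 members (8.5%, against 6.73% of all genes), PSAH, catA, BBD2 and OsOBF1 among them. Without both replicate 2 arrays, with 2 arrays a line, 10 members passed, all lower. In that fit 253 of all genes passed (1.41%, and 0.821% lower), and 8 of these 10 members were not among the 3 named above.

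**Figure D5:**
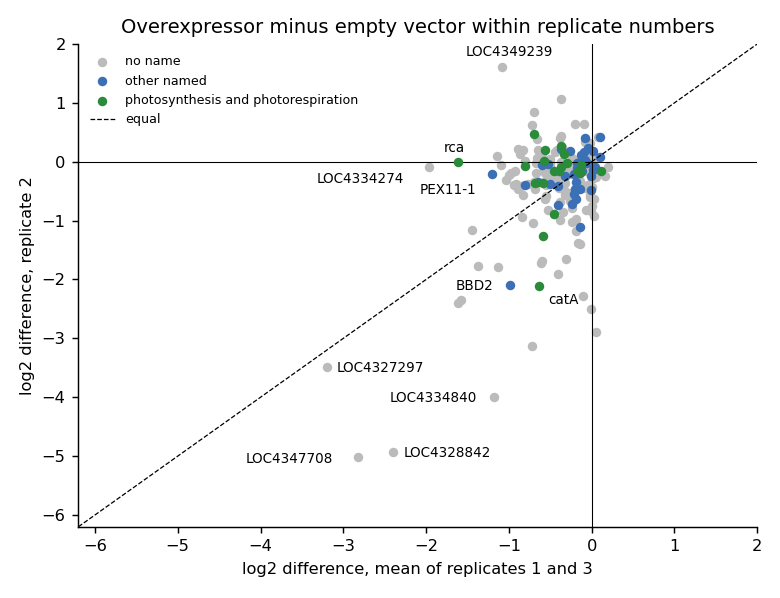
Log2 difference, overexpressor minus empty vector, of each member within replicate 2 (vertical) against the mean of replicates 1 and 3 (horizontal), with the dashed line at equal values and colours by role. rca and LOC4334274 lie near 0 on the vertical axis and below -1.5 on the horizontal one, whereas catA lies at -2.11 on the vertical axis.

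In 5 members (2.5%, against 5.93% of all genes) the replicate 2 arrays of both lines stood more than 2-fold from the other arrays in the same direction. RCABP89 and LOC4336260 were higher there. LOC4349239, LOC4328842 and LOC4337388 were lower. LOC4349239 measured 23896.2, 732.4 and 27195.2 in the empty vector and 13546.7, 2275.2 and 10702.5 in the overexpressor. LOC4337388 measured 23231.4, 881.8 and 24850.5 in the empty vector and 10712.6, 243.2 and 11285.0 in the overexpressor. Both owed their place in the list to replicates 1 and 3.

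Second probe sets of the same genes gave another reading of the same RNA. Of 84 members with another probe set annotated to the gene alone, 77 had one above the median probe set of the array, and of these 62 were below 0 with a median of -0.30, where the first probe sets of the same genes had -0.29. The sign was opposite in 9. With probe sets of the cross-hybridizing types left out, ALDP, QM1 and EIL1 were read by dimmer probe sets and stood at 0.47, 0.74 and 0.49. The second probe set of catA was at -1.39, that of BBD2 at -1.29, that of rca at -0.76 and that of MT2B at -0.62. The second probe set of GLO1 was at 0.34, against -0.58 for the brighter one. Those of HAK5, HSP81-3 and GOS2 were at 0.59, 0.28 and 0.008, against -0.34, -0.13 and -0.11. LOC4340005 and LOC4340006 are direct neighbours in RefSeq's gene order, and no other pair of members is.

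Most members kept their standing. In the overexpressor 158 of the 200 were again among its 200 brightest genes, 186 were among its 400 brightest, and 7 were outside its 1000 brightest.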

How the data were processed

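Total RNA (10 µg, per the labels) of leaf blades was labelled and hybridized to 6 Affymetrix rice arrays, 3 per line. The authors deposited intensity values for 57381 probe sets on a linear scale. From the values, the mean after trimming 2% at each end was about 500.1 on every array. The software that made these summaries was not given in the sources used here. Of 57194 rice probe sets, after 187 control probe sets were left out, 22436 were annotated to 1 gene in GEO's platform table, 95 to several and 34663 to none. Symbols were updated by Entrez identifier through RefSeq's gene table (assembly ASM3414082v1). No sequence was used, and that table's positions served only to find neighbouring genes.

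Log2(intensity + 16) was fitted for all 17905 genes with limma 3.58.1 (R 4.3.3; variance trend, two-sided, Benjamini-Hochberg over all genes, threshold 0.05). The fit was tried on simulated data with the same independent noise for every gene and large changes. That does not tell how it performs at the small changes of most members here. The number of arrays limits the precision. The replicate numbers come from the labels. Deviations from the group means over genes correlated at 0.312, 0.400 and 0.245 for same-numbered arrays and at -0.411 to 0.273 for others. The third empty vector and first overexpressor arrays (0.273) thus correlated above the third arrays of both lines (0.245), so the pairing is uncertain. The main fit ignored the numbers. A further fit took them as pairs, and this block is printed where it changes a call.

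The members and the role and tissue lists, which rest on symbols and synonyms (a pollen list matched no gene), were chosen with earlier results of these data known. Genes were named by rule: the brightest named members, all that passed, the largest non-overlapping differences, up to 5 for each role, the widest in the control, those at the limit of the list, and the 5 brightest unnamed. Other genes are named to account for every named member or were singled out after their values were seen. Alternatives covered pseudocount, normalization, low values, array weights, block, left-out arrays, cross-hybridizing probe sets, and the arrays and number that define the list. A fit on all rice probe sets and quantile normalization of the other choices were added after seeing the data.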

Additional observations from a re-analysis of the deposited data

How the results depend on the processing

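The number of genes passing was the least stable value. Against 75 it was 180 with the replicate block, 682 with array weights, 119 with median centring, 253 without both replicate 2 arrays, 94 when all rice probe sets were fitted, and between 1 and 46 when 1 array was left out. Among the members, 3 passed as fitted, 4 with the replicate block, 12 with array weights, 10 without both replicate 2 arrays, 1 when the list was chosen on the overexpressor (with either normalization), 0 when it was chosen on all 6 arrays (with either normalization) or cut at 100 genes, and between 0 and 2 when 1 array was left out. The replicate block changed no other call among the named members.

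The median of -0.32 moved to -0.12 with quantile normalization, to -0.17 with the overexpressor's list (reversed to 0.060 with quantile normalization as well), to -0.048 with the list of all 6 arrays and quantile normalization, and to -0.20 with empty vector replicate 1 kept out of the choice. Leaving out 1 array gave -0.35 to -0.28. The count below 0 was 99 of 100 and 350 of 400 at other list lengths, and 87 and 110 for the 2 lists after quantile normalization. The signal share difference of -1.85 points was -0.895 with quantile normalization, -0.619 with the overexpressor's list, -1.28 with that of all 6 arrays, -1.14 with 100 genes, -2.73 with 400, and -1.14 with empty vector replicate 1 kept out. Leaving out 1 array gave -2.08 to -1.69.

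Named members near 0 changed sign with the scaling, none of them past the threshold either way. After quantile normalization the log2 differences were 0.081 for PETE, 0.039 for ADI1, 0.061 for LFNR1, 0.14 for RBCS-C and GOS2, 0.078 for EF-1-alpha, 0.065 for RPS27AA, 0.18 for QM1 and UBQ1, 0.11 for TCTP and HSP81-3, 0.10 for CLPC2, 0.0095 for CLPC1, 0.054 for FTSH2, 0.13 for GAPC1, 0.15 for HSP81-2 and GLYI-11, 0.073 for PIP2-7, 0.20 for GF14F and 0.011 for atpI. MT2A and TRXH were at -0.031 and -0.049 with array weights and at -0.048 and -0.086 without both replicate 2 arrays, where UBQ1 was at 0.020. Without cross-hybridizing probe sets ALDP was at 0.47, QM1 at 0.74 and EIL1 at 0.49. Leaving out 1 array moved 11 members across 0: RCABP89 from -0.47 to 0.61, ADI1 from -0.48 to 0.0042, QM1 from -0.12 to 0.027, UBQ1 from -0.091 to 0.012, MT2A from -0.047 to 0.12, TRXH from -0.15 to 0.21, HSP81-2 from -0.099 to 0.018, HOS59 from -0.094 to 0.057, GF14F from -0.091 to 0.075, ARF from -0.059 to 0.26 and GLYI-11 from -0.10 to 0.040. The cause of these moves was not tested. With 3 arrays a line, 197 of the 200 members did not pass, which does not show that they did not differ.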

Other observations

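Genes that took the place of members among the 200 brightest of the overexpressor numbered 42, of which 35 were higher there, where 49.3% of all genes were lower. The overexpressor arrays chose them, which by itself favours higher values there, so their direction as a group is a description. GLN1-1, a cytosolic glutamine synthetase, was the one among them that passed the test between the lines, where 0.251% of all genes passed in that direction. It measured 4173.3, 3174.8 and 2700.9 in the empty vector and 13047.8, 22779.9 and 13521.1 in the overexpressor, and rose by 2.26 ± 0.28 on the log2 scale (SE, limma adjusted p = 0.0382), from place 2467 to place 130. The plastid enzyme GS2, a member, had a log2 difference of -0.20 ± 0.24, and whether the 2 differences themselves differ was not tested.

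LOC4326757, which has no name in the tables, came from farthest, from place 4645 to place 30. It measured 1219.7, 3067.4 and 1067.4 in the empty vector and 7100.2, 40304.5 and 18358.5 in the overexpressor (log2 difference 3.44 ± 0.67, limma adjusted p = 0.0910). CAD3, a cinnamyl alcohol dehydrogenase of lignin synthesis, measured 3048.6, 6430.2 and 3167.3 against 10690.2, 24475.9 and 11385.8, without overlap (log2 difference 1.86 ± 0.42, limma adjusted p = 0.115). The plasma membrane aquaporin PIP1-3 measured 2623.0, 7264.7 and 3348.8 against 10391.6, 25282.6 and 11957.1, also without overlap (log2 difference 1.87 ± 0.47, limma adjusted p = 0.145). For each of these 3 genes replicate 2 was the highest array of both lines. All overexpressor arrays lay above all empty vector arrays for 11.8% of all genes.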
